A study of Mus musculus with 12 samples.

Results

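The proteasome subunit genes are the genes that encode the 20S core and the 19S regulatory cap of the 26S proteasome, together with 3 chaperones that assemble the base of the cap. They were defined by symbol, as every gene column beginning with Psma, Psmb, Psmc or Psmd followed by a number, without the interferon-inducible immunoproteasome subunits Psmb8, Psmb9 and Psmb10. The set was chosen with earlier results of these data known. This gave 36 of the 27998 gene columns. They comprise 7 subunits of the 20S alpha ring, 7 of the 20S beta ring, 6 of the 19S ATPase ring, 11 non-ATPase subunits of the 19S cap, the 3 base chaperones and 2 tissue-restricted 20S subunits.

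The transcriptomes were those of single c-Kit-enriched bone marrow cells from mice, sequenced with 10x Genomics 3' chemistry, with 1 library for each of 4 genotypes at each of 3 time points. Per the labels, all mice were 8 to 12 weeks old when they received 5 injections of pIpC, a double-stranded RNA that induces the Mx1 promoter. The text of the study gives a younger age at injection, so this age is uncertain. Marrow was taken 2 weeks (T1), 2 months (T2) or 4 months (T3) later. WT mice lacked Mx1-Cre, E2-KO mice carried Mx1-Cre and a floxed Ezh2 allele pair, G12D mice carried Mx1-Cre and 1 inducible NRas G12D allele, and G12D/E2-KO mice carried all of these, so Cre itself also differed between WT and every mutant. Mx1-Cre acts in many interferon-responsive cells and not in blood cells alone, and the number of mice behind a library is not given in the sources used here. The 3 libraries of a genotype therefore differ in time, and p-values measure the spread that remains between these libraries after the time point is fitted.

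The 26S proteasome degrades proteins that carry ubiquitin chains. In its core, 2 outer alpha rings gate the entry and 2 inner beta rings hold the catalytic sites. The cap binds ubiquitin, removes the chain and uses a ring of ATPases to unfold the substrate and feed it into the core. Blood cells rely on it throughout differentiation, and maturing erythroid cells use the ubiquitin system to clear proteins and organelles.

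The libraries held 12.6 to 23.6 M unique molecular identifiers (UMIs, each marking 1 captured RNA molecule), and UMIs per cell were lowest in E2-KO T3 (median 3780.5) and highest in WT T2 (median 6975.5). Of the 5648 cells in the G12D T1 table, 2896 were also present in the G12D/E2-KO T1 table, where they made up 95.1% of the cells. In 1494 of them the counts were identical in every gene. These cells were counted only in G12D/E2-KO T1, which left 32701 cells, and results with all cells as deposited are given where they differ. Ezh2 ranged over 103 to 133 CPM (UMIs per M UMIs of the library) in WT and 81.7 to 103 CPM in G12D, but over 27.7 to 34.6 CPM when floxed alone (E2-KO) and 20.7 to 25.3 CPM in the double mutant. Kit, which encodes the receptor used for the enrichment, was detected in every library at 43.6 to 80.9 CPM. Xist exceeded 100 CPM in 3 libraries (WT T3, E2-KO T3 and G12D T3) and not in the other 9, so at T3 the double mutant differed in this marker of sex from all libraries of its time point.

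Promoter sequences were available in RefSeq for 29 of the 36 members (GRCm38.p6, the build that mm10 names). The stretch of 250 bases before the transcription start is shown for 4 members named in the results. Psmd9 and Psmd4 were the members called lower in the double mutant, Psma7 varied widely between cell classes, and Psmb5 encodes a catalytic subunit. Capitals mark matches to a core of the antioxidant response element, TGANNNNGC, which the proteasome gene activator NFE2L1 is known to bind, or to the CCAAT box, each searched on both strands.
Psmd9 (chr5:123227940-123228189, plus strand): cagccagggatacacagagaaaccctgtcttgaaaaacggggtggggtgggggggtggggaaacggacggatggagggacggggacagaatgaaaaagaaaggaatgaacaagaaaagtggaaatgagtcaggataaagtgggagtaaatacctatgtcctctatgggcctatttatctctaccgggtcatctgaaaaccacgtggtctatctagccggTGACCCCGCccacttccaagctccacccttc
Psmd4 (chr3:95042615-95042864, minus strand): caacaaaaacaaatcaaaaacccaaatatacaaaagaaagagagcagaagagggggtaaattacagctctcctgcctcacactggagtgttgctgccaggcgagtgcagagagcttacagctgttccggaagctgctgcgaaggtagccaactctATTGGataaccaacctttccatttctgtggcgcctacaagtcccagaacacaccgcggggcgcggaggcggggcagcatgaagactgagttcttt
Psma7 (chr2:180042465-180042714, minus strand): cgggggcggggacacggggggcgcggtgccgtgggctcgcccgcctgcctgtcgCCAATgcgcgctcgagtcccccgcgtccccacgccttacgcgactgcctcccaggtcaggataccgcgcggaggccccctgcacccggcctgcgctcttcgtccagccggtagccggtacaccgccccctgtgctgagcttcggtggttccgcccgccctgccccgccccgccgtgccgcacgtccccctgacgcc
Psmb5 (chr14:54617996-54618245, minus strand): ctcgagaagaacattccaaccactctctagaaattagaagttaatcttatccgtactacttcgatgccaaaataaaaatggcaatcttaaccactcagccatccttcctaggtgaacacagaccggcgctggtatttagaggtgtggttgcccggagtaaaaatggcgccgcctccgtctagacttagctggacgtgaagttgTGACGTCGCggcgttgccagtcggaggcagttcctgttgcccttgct
Psmd9 had 1 antioxidant response match, beginning 31 bases before the start, and Psmb5 had 1, beginning 47 bases before it. Psmd4 and Psma7 each had 1 CCAAT box and no antioxidant response match. Among the 29 members, 12 (41.4%) held an antioxidant response match and 12 (41.4%) a CCAAT box. Over all 27025 genes with a window, the shares were 38.7% and 37.5%. Both motifs were thus about as common in the members' windows as in any promoter of this length.

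The members were among the steadily detected genes of these cells. Summed over all 36, they made up 0.370% to 0.562% of the UMIs of a library. Psma7, an alpha ring subunit, had the highest mean level over the 12 libraries (429 CPM), followed by the beta ring subunit Psmb1 (349 CPM). Subunits of the 20S rings ranged down to 138 CPM for Psmb7, whereas the highest 19S member was Psmd8 at 120 CPM. Reads of this assay come from the 3' end of each molecule, so a level is not scaled to gene length. It can still depend on how the end of each transcript is annotated, and 2 members, Psmd1 and Psma2, overlap another measured protein-coding gene on the same strand. The tissue-restricted subunits were near the limit of detection. Psma8, known from the testis, reached 1.40 to 6.66 CPM, and Psmb11, known from thymic epithelium, reached at most 0.356 CPM.

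The first comparison asked how the subunit genes differed between the mutants and WT over all cells. The summed level was lower in G12D/E2-KO than in WT at each of the 3 time points, at a mean ratio of 0.83, while neither single mutant lay wholly below WT. In WT the summed CPM was 5043 at T1, 5089 at T2 and 4144 at T3. For E2-KO the values were 5014, 5616 and 3695, and for G12D 3983, 4862 and 4197. The double mutant had 3973, 3980 and 3853, a mean of 3935 ± 71.5 CPM (SD, n = 3) against 4759 ± 533 CPM in WT. The double mutant libraries were close to each other and all lay below the lowest WT library, whereas the libraries of E2-KO and of G12D overlapped those of WT. The mean log2 ratio to WT, taken within time points, was -0.27 ± 0.14 (SD) in G12D/E2-KO, -0.13 ± 0.19 in G12D and -0.01 ± 0.15 in E2-KO. Over the 23559 of the 32701 cells that fell into the 10 cell classes described below, it was also -0.27 in G12D/E2-KO when each class was given the share it has in WT, and the remaining cells are not part of that value. With that weighting WT had 4180, 4508 and 3803 CPM at T1, T2 and T3. Both single mutants were then below WT at each time point, E2-KO at 4113, 4423 and 3166 CPM and G12D at 3520, 4273 and 3526 CPM. These sums are a description, and no test was made on them.

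**Figure D1:**
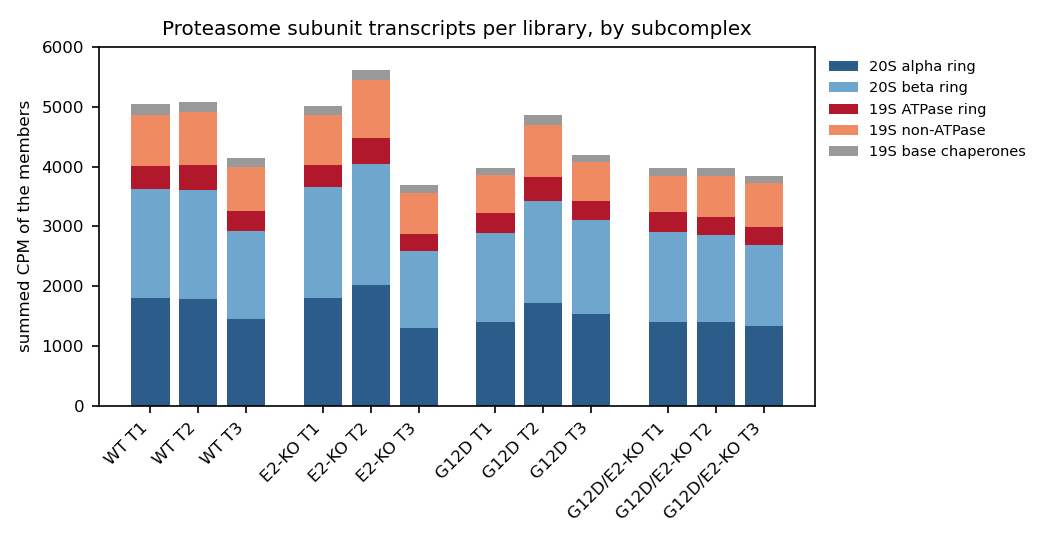
Summed CPM (y axis) of the proteasome subunit genes in each of the 12 libraries (x axis, grouped by genotype), with bar segments for the subcomplexes. The G12D/E2-KO bars stand at 3853 to 3980 CPM, and the WT bars at 4144 to 5089 CPM.

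The lower level in the double mutant was spread over the subcomplexes rather than lying in one of them. The log2 ratio to WT was -0.28 ± 0.14 for the alpha ring, -0.24 ± 0.10 for the beta ring, -0.27 ± 0.19 for the ATPase ring, -0.28 ± 0.26 for the non-ATPase subunits and -0.38 ± 0.13 for the base chaperones (SD over 3 time points). Both 20S rings, the ATPase ring and the base chaperones were below WT at every time point, and the non-ATPase subunits at T1 and T2 but not at T3 (log2 ratio 0.01). The summed beta ring, which holds the catalytic sites, was at 1702 ± 196 CPM in WT and 1434 ± 78.7 CPM in the double mutant. The ratio of core to cap, the summed CPM of both 20S rings over that of the ATPase and non-ATPase subunits, was 2.72 to 2.93 in WT and 2.56 to 3.05 in G12D/E2-KO, so these ranges overlapped.

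Gene by gene, the test called few members. It was edgeR's quasi-likelihood test with genotype and time point as factors, and p-values were adjusted over all 12848 genes tested with a threshold of 0.05. Of the 35 members tested, 2 were lower in G12D/E2-KO than in WT and 0 were higher, where 5.69% of all genes tested were called and 1.96% were called lower. The calls thus rest on only 2 members, Psmd4 and Psmd9, and 2 of 35 lies close to the share of all genes called in either direction. All 35 log2 changes were below 0, with a median of -0.33, against 49.0% of all genes below 0 and a median of 0.01. At an unadjusted p under 0.05, 18 members were lower and 0 higher, and 26.2% of all genes passed this cutoff in either direction. DESeq2 called 5 members, all lower, where it called 10.2% of all genes and 4.21% lower: Psmd4, Psmd9, Psmc4, Psmd7 and Psma3. With scaling to total UMIs alone, without TMM factors, edgeR called 0, and the members' median was -0.27 against 0.07 for all genes. In E2-KO 0 of 35 members were called by edgeR and 0 by DESeq2, with 1 at an unadjusted p under 0.05 (1.59% of all genes called, 16.1% at the unadjusted cutoff), and the median was 0.01. In G12D 0 of 35 were called by either tool, with 3 at an unadjusted p under 0.05 (0.109% of all genes called, 11.8% at the unadjusted cutoff). In G12D 31 of 35 log2 changes were below 0, with a median of -0.09, against 51.5% of all genes below 0, and in E2-KO 17 of 35 were, against 49.3%. In sums over all cells, fewer cells of a type and less RNA per cell cannot be told apart.

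**Figure D2:**
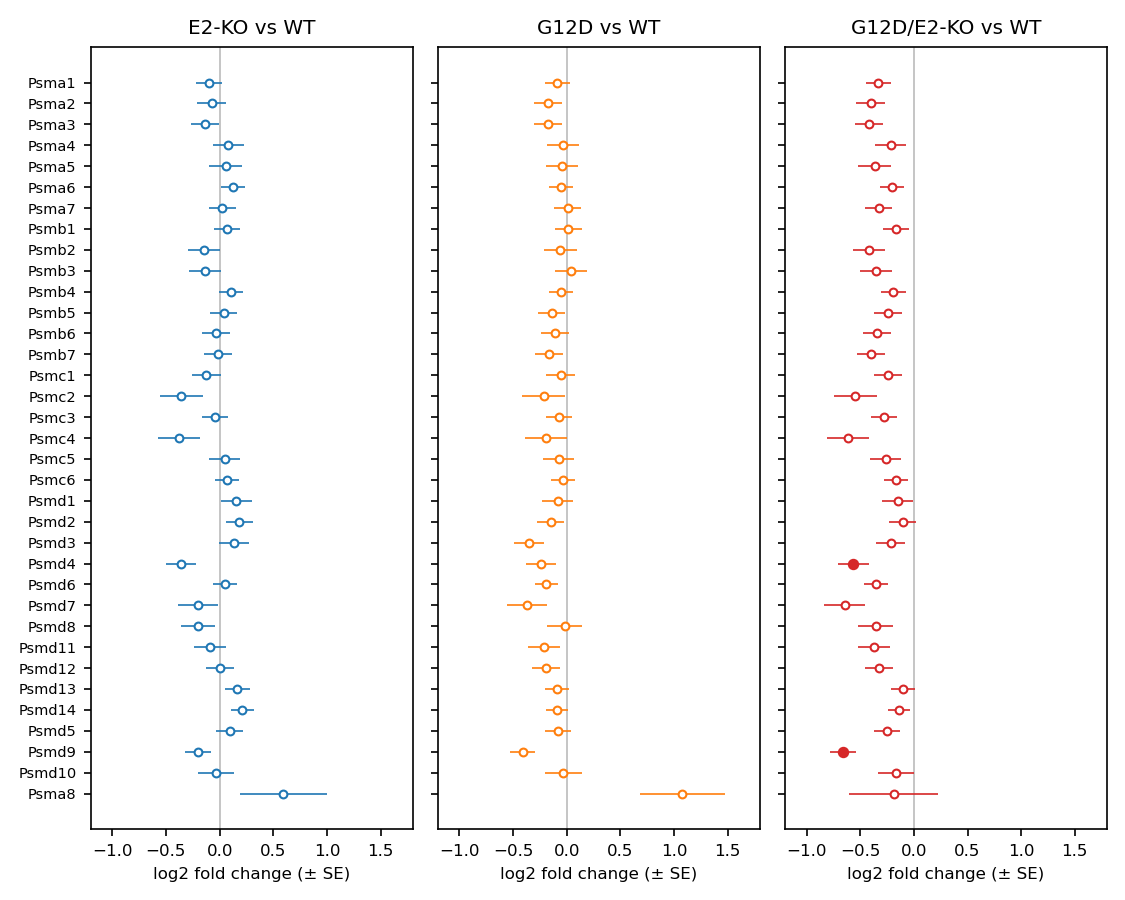
Log2 fold change against WT with its SE (x axis) for the 35 members tested (y axis, ordered by subcomplex) in each mutant. Filled points passed the adjusted threshold, and these are Psmd4 and Psmd9 in G12D/E2-KO. All 35 G12D/E2-KO points lie below 0.

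Psmd9, a chaperone that binds an ATPase subunit while the base of the cap forms, had the smallest p. It stood at 98.2, 89.3 and 75.1 CPM in WT at T1, T2 and T3, and at 51.9, 60.6 and 59.6 CPM in G12D/E2-KO. In E2-KO it was at 82.2, 89.0 and 61.3 CPM, and in G12D at 58.4, 82.2 and 53.9 CPM. Every double mutant library lay below every WT library, while the single mutants overlapped WT. The log2 change in G12D/E2-KO was -0.66 (SE 0.12, edgeR adjusted p 0.0151). This call was lost without WT T1 (adjusted p 0.0783), WT T3 (0.114) or G12D/E2-KO T2 (0.0836), and also under scaling to total UMIs alone (0.055), while the log2 change stayed between -0.60 and -0.74. Among the cell classes described below, mean CPM of Psmd9 was highest in early (126.5 CPM) and late erythroid cells (113.8 CPM). Within single classes the main fit did not call Psmd9. How far the share of erythroid cells enters its all-cell difference was not tested.

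Psmd4, a ubiquitin receptor of the cap, was at 98.8, 97.4 and 85.0 CPM in WT and at 69.1, 62.9 and 64.4 CPM in G12D/E2-KO. Again no double mutant library reached the WT range. In E2-KO it was at 79.3, 94.4 and 52.9 CPM, and in G12D at 70.4, 97.5 and 66.8 CPM. The log2 change in the double mutant was -0.57 (SE 0.14, adjusted p 0.0451). That p lay close to the threshold and passed it when E2-KO T3, G12D T2, G12D/E2-KO T1 or G12D/E2-KO T3 was left out, but not when any of the other 8 libraries was left out (adjusted p 0.0548 to 0.255). It was also lost with no filter on low counts (0.0502), with the cells as deposited (0.0539), with only the groups compared in the fit (0.0697), when the time point was not fitted as a block (0.0894) and under scaling to total UMIs alone (0.0999). The log2 change stayed below 0 in each of these settings.

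Psmd7, a structural subunit of the cap lid that pairs with the deubiquitinase, came next by p and did not pass in edgeR. Its levels were 157, 125 and 122 CPM in WT and 70.2, 78.9 and 123 CPM in G12D/E2-KO, where only T3 lay in the WT range. E2-KO had 112, 147 and 99.8 CPM and G12D 85.1, 132 and 91.9 CPM. The log2 change was -0.65 (SE 0.19, adjusted p 0.0635). It passed without G12D/E2-KO T3 (adjusted p 0.014) and in the edgeR fit with a covariate for Xist above 100 CPM (0.0146). At T3 that covariate sets apart G12D/E2-KO alone. Both settings therefore take this library out of the comparison, and sex cannot be separated from it. Psmd7 also had its highest class mean in early erythroid cells (190.2 CPM) and was not called within any class in the main fit.

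The catalytic subunits had similar, smaller differences, none past the threshold. Psmb5, which carries the chymotrypsin-like site, was at 204, 242 and 174 CPM in WT and at 178, 181 and 181 CPM in G12D/E2-KO. E2-KO had 239, 247 and 162 CPM of Psmb5 and G12D had 162, 208 and 176 CPM. Double mutant and WT overlapped (log2 change -0.24, SE 0.13, adjusted p 0.252). Psmb6, with the caspase-like site, was at 281, 288 and 229 CPM in WT and at 224, 223 and 202 CPM in G12D/E2-KO, without overlap. E2-KO (291, 316 and 191 CPM) and G12D (216, 264 and 236 CPM) both overlapped WT. The log2 change in the double mutant was -0.34 (SE 0.13, adjusted p 0.128). Psmb7, with the trypsin-like site, was at 164, 161 and 127 CPM in WT and at 125, 121 and 106 CPM in G12D/E2-KO, also without overlap. For Psmb7 the single mutants again overlapped WT, with 162, 180 and 115 CPM (E2-KO) and 116, 146 and 128 CPM (G12D). Its log2 change in the double mutant was -0.40 (SE 0.13, adjusted p 0.0821).

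Psmd14, the deubiquitinase that cuts the ubiquitin chain from the substrate, was at 89.9, 104 and 79.6 CPM in WT, 106, 121 and 93.5 CPM in E2-KO, 73.9, 97.6 and 79.7 CPM for G12D and 75.7, 88.3 and 93.9 CPM in G12D/E2-KO. E2-KO was above WT at all 3 time points (log2 change 0.21, SE 0.10, adjusted p 0.347), and the double mutant overlapped WT (-0.14, SE 0.10, adjusted p 0.423). Psmd3, a scaffold subunit of the cap, was among the 3 members of smallest p in G12D, with Psmd9 and Psma8. It was at 47.6, 51.1 and 43.7 CPM in WT, 51.8, 55.3 and 50.9 CPM in E2-KO, 27.9, 45.5 and 36.9 CPM for G12D and 31.4, 43.5 and 55.5 CPM in G12D/E2-KO. G12D overlapped WT through T2 alone (log2 change -0.35, SE 0.14, adjusted p 0.38).

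In the ATPase ring, Psmc4 was at 61.0, 62.0 and 54.7 CPM in WT and at 49.0, 34.9 and 36.9 CPM in G12D/E2-KO, without overlap. E2-KO had 52.0, 64.2 and 28.4 CPM of Psmc4 and G12D had 50.4, 60.7 and 42.6 CPM. Its log2 change in the double mutant was -0.61 (SE 0.20, adjusted p 0.0799), and it passed without G12D/E2-KO T1 (0.0496). In the alpha ring, Psma7 was at 475, 456 and 409 CPM in WT and at 367, 370 and 368 CPM in G12D/E2-KO, where the 3 libraries were nearly equal and all below WT. The levels of Psma7 in E2-KO were 478, 555 and 359 CPM, and those in G12D were 402, 453 and 454 CPM. The log2 change in the double mutant was -0.33 (SE 0.13, adjusted p 0.132).

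**Figure D3:**
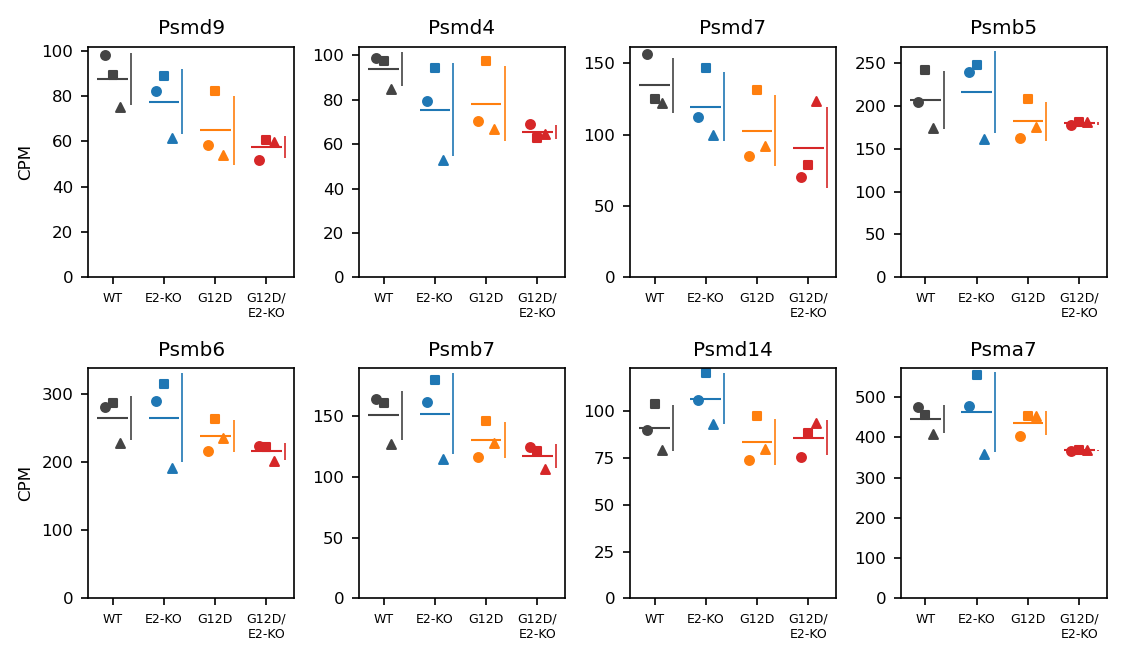
CPM (y axis) of 8 members in each genotype (x axis), with circles, squares and triangles for T1, T2 and T3, a horizontal line at the mean and a vertical bar for ± SD (n = 3). For Psmd9, Psmd4, Psmb6, Psmb7 and Psma7 every G12D/E2-KO library lies below every WT library.

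In all, 12 members had every G12D/E2-KO library below every WT library: Psma3, Psma5 and Psma7 of the alpha ring, Psmb2, Psmb6 and Psmb7 of the beta ring, Psmc2 and Psmc4 of the ATPase ring, Psmd4 and Psmd8 of the cap, and the chaperones Psmd5 and Psmd9. Among all genes tested, 10.5% were so placed. The corresponding count was 0 in E2-KO and 0 in G12D, where 9.99% and 9.5% of all genes lay wholly below WT. Wholly above WT were 0 members in the double mutant (14.8% of all genes), 1 in E2-KO (Psmd1, a scaffold subunit of the cap, 15.7% of all genes) and 1 in G12D (Psma8, 7.28% of all genes, at 3.85, 6.66 and 6.47 CPM against 2.02, 2.83 and 3.28 CPM).

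The double mutant was also set against each single mutant, and the interaction was tested, that is, by how much the double mutant departs from adding up what each single mutation does on the log2 scale. Against E2-KO, edgeR called 0 of 35 members with 17 at an unadjusted p under 0.05, where 0.0934% of all genes were called and 19.1% passed the unadjusted cutoff. DESeq2 called 3 members lower there (Psmd6, Psmd9 and Psmd14), beside 5.4% of all genes called and 2.65% called lower by the same tool. Without G12D/E2-KO T3, edgeR called 1 (Psmd7). Against G12D, 0 were called by either tool, with 5 at an unadjusted p under 0.05 (1.36% of all genes called, 14.8% at the unadjusted cutoff), and without E2-KO T3 edgeR called 1 (Psma8). The median log2 changes were -0.30 against E2-KO and -0.19 against G12D, with 35 and 33 of 35 members below 0, where 50.26% of all genes were below 0 in each. In the interaction 0 members were called by either tool, with 1 at an unadjusted p under 0.05 (0.0934% of all genes called, 3.59% at the unadjusted cutoff). That member was Psma8 (-1.86, SE 0.58, adjusted p 0.731), at the few UMIs given above. The next were Psma7 (-0.36, SE 0.18) and Psmd14 (-0.26, SE 0.15), both at an adjusted p of 1. In the interaction 32 of 35 log2 values were below 0, with a median of -0.18, where 49.95% of all genes were below 0. No test was made on the members as a set. All of these contrasts share libraries with those against WT.

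Between time points 0 members passed in edgeR or DESeq2. At T2 against T1 edgeR and DESeq2 called 0 of 35, with 5 at an unadjusted p under 0.05 (0.0% of all genes called, 4.66% at the unadjusted cutoff), and the median log2 change was 0.12. The smallest p belonged to Psmd6, a lid subunit of the cap, which was at 56.2, 69.8 and 47.7 CPM in WT, 61.6, 75.5 and 46.1 CPM in E2-KO, 41.6, 62.4 and 44.8 CPM for G12D and 41.6, 54.0 and 44.6 CPM in G12D/E2-KO. T2 was above T1 in every genotype (log2 change 0.35, SE 0.09, adjusted p 0.908). Psmc6, an ATPase of the base, followed with 0.25 (SE 0.10), at 70.5, 88.3 and 62.1 CPM in WT, 79.9, 90.3 and 63.9 CPM in E2-KO, 60.1, 80.7 and 68.3 CPM for G12D and 61.7, 73.0 and 68.2 CPM in G12D/E2-KO. Psmd2, a scaffold subunit, had a log2 change of 0.28 (SE 0.11), at 40.6, 55.0 and 43.7 CPM in WT, 55.1, 52.9 and 50.4 CPM in E2-KO, 34.4, 49.2 and 39.5 CPM for G12D and 38.1, 49.2 and 47.4 CPM in G12D/E2-KO. Psmc6 was higher at T2 in every genotype and Psmd2 in every genotype other than E2-KO.

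At T3 against T1 both tools called 0, with 13 at an unadjusted p under 0.05 (0.0% of all genes called, 13.1% at the unadjusted cutoff), and the median was -0.19. Psmb3, a noncatalytic beta ring subunit, was at 286, 288 and 231 CPM in WT, 277, 301 and 176 CPM in E2-KO, 261, 280 and 259 CPM for G12D and 254, 209 and 188 CPM in G12D/E2-KO (log2 change -0.38, SE 0.13, adjusted p 0.365). Psmb2, of the same ring, was at 301, 293 and 230 CPM in WT, 287, 331 and 159 CPM in E2-KO, 242, 288 and 237 CPM for G12D and 225, 210 and 200.4 CPM in G12D/E2-KO (-0.38, SE 0.13, adjusted p 0.365). The ATPase Psmc2 was at 46.5, 54.5 and 40.6 CPM in WT, 42.5, 51.7 and 22.5 CPM in E2-KO, 38.2, 54.0 and 29.7 CPM for G12D and 39.95, 28.7 and 30.9 CPM in G12D/E2-KO (-0.48, SE 0.17, adjusted p 0.365). All 3 were lower at T3 than at T1 in every genotype. All 7 alpha ring and all 7 beta ring subunits were below 0 at T3. So were all ATPase ring subunits of the cap, from -0.48 for Psmc2 to -0.07 for Psmc6, while the 11 non-ATPase subunits had a median of -0.01. Xist separates T1 from T3 in 3 genotypes. With a covariate for Xist above 100 CPM, the T3 term is set by G12D/E2-KO T3 alone, so that fit gives no time difference over the genotypes. The log2 change of Psmd10, a chaperone also known as gankyrin, was -0.95 in that fit and -0.39 in the main fit.

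The second comparison asked how the subunit genes differ between cell classes. Cells were gated by marker lists, and 10 classes had at least 20 cells in every library. By lineage, these were stem and multipotent progenitor cells (HSC/MPP), then the myeloid classes of granulocyte-macrophage progenitors merged with young granulocytes (GMP/early GN), late granulocytes (late GN), promonocytes (ProMo), dendritic cells (DC) and basophils with mast cells (baso/mast). The remaining classes were megakaryocyte-erythroid progenitors (MEP), megakaryocytic cells (Meg), early erythroid cells (EryP/early Ery) and late erythroid cells (late Ery). Each name rests on gating markers that led the class, such as Ltf and Ngp in late GN, Ms4a6c and F13a1 in ProMo, Pf4 in Meg, Mt2 and Car1 in EryP/early Ery and Hba-a2 in late Ery. Since the gate used these genes, their lead is no test of the name. Among the 10 leading genes were 2 of 5 markers in MEP, 2 of 6 in EryP/early Ery and 2 of 7 in DC, and 5 to 7 markers in each other class. No member is among the gating markers. Class levels below are CPM within the UMIs of that class.

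In summed CPM, the subunit genes were highest in ProMo in 12 of 12 libraries. Their summed level was 6060 ± 663 CPM there (SD, n = 12), followed by 4795 ± 852 in EryP/early Ery, 4770 ± 802 in GMP/early GN, 4665 ± 801 in baso/mast and 4642 ± 416 in DC. These 4 neighbors overlapped widely. Meg (4006 ± 572), HSC/MPP (3969 ± 498) and MEP (3934 ± 686) formed a lower group that also overlapped. Late GN (2723 ± 265) and late Ery (2417 ± 453) were lowest, and late Ery was the lowest class in 9 of 12 libraries and late GN in the other 3.

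**Figure D4:**
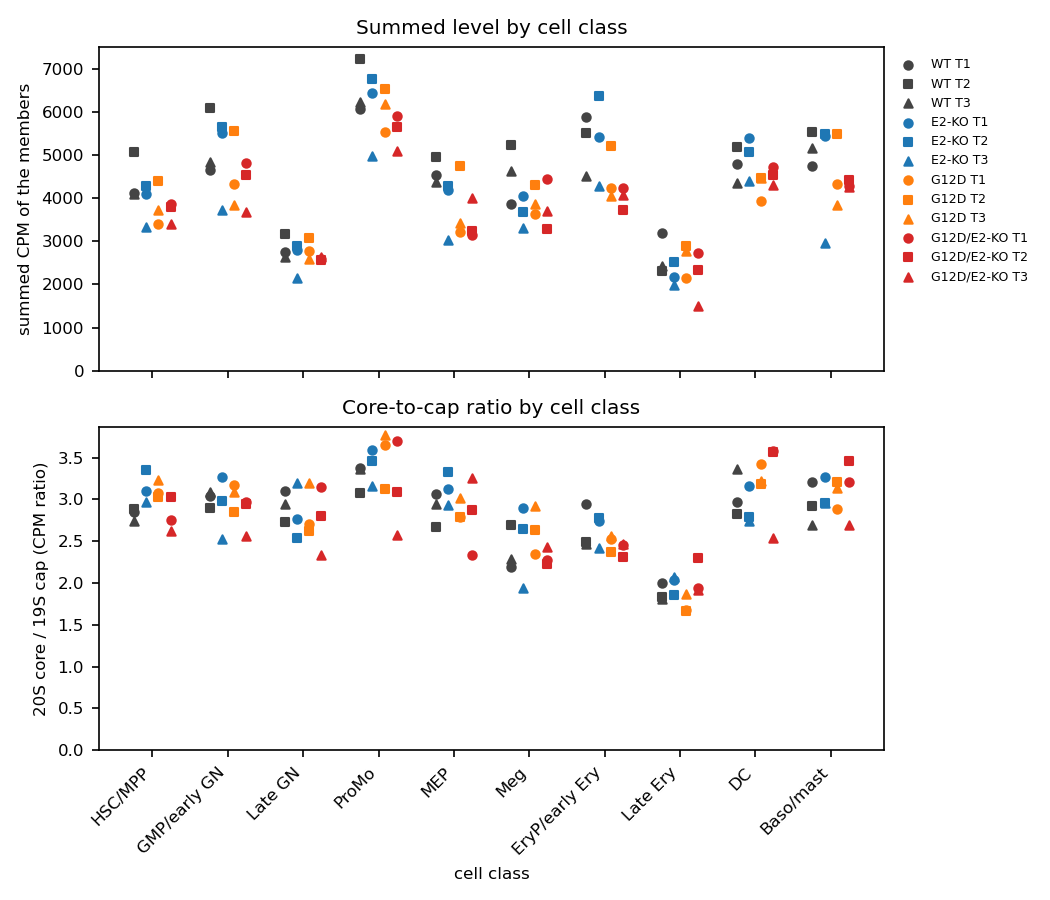
Summed CPM of the members (upper panel, y axis) and the ratio of 20S core to 19S cap CPM (lower panel, y axis) in 10 cell classes (x axis), with 1 point per library, colored by genotype and shaped by time point. ProMo has the highest sum in 12 of 12 libraries, and late Ery has the lowest ratio in 10 of 12.

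Both of the lowest classes devote much of their RNA to a few genes, haemoglobins or granule proteins, and there the direction depends on the scale. With TMM factors, which scale to the bulk of genes, late Ery stood above the mean of the other classes (median log2 difference of the members 0.37) and late GN as well (0.22). The ProMo median was 0.31 there, so the first place of ProMo in CPM also depends on the scale. With scaling to total UMIs the medians in late Ery and late GN were -0.71 and -0.55, while the median of all genes shifted to -1.25 and -0.85. The members stood above the median gene of these classes. Scaling moves all genes of a class about alike, so this holds in either scale and is not a second result. TMM factors were 0.412 to 0.680 in late Ery and 0.548 to 0.786 in late GN, against 1.06 to 1.30 in ProMo. The calls given next are from the fit with TMM factors on 34 members, with the count that also held under the other scaling. Going from TMM to total UMIs moves the log2 differences downward in late GN and late Ery and upward in the other classes. Calls in the direction of that move were nearly bound to hold, so only calls against it test the dependence on scale.

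In ProMo 25 members were higher and 1 lower (69.1% of all genes called, 34.2% higher and 34.9% lower), and all 26 calls held under both scalings. The 25 higher calls go with the upward move just named, and only the 1 lower call goes against it. The higher calls included all 7 alpha and all 7 beta ring subunits. Psma7 led, at 846 ± 117 CPM in ProMo against 123 ± 34.2 CPM in late Ery, with a log2 difference from the other classes of 1.14 (SE 0.05, edgeR adjusted p 3.84e-43). Psma4, a further alpha ring subunit, was at 257 ± 47.5 CPM in ProMo against 55.7 ± 16.6 CPM in late Ery, and its log2 difference in ProMo was 0.69 (SE 0.06). Psmb3 was at 363 ± 60.9 CPM in ProMo and 88.5 ± 20.8 CPM in late Ery (log2 difference in ProMo 0.66, SE 0.05). The 1 lower member was Psmd9, at 51.1 ± 4.72 CPM in ProMo.

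In GMP/early GN 14 members were higher and 5 lower (64.7% of all genes called, 32.6% higher and 32.2% lower), and the 14 and 1 of the 5 held under both scalings. HSC/MPP had 0 higher and 32 lower (61.2% of all genes called, 27.0% lower), MEP 0 and 25 (40.8%, 16.8% lower), and Meg 1 and 25 (48.2%, 25.6% higher and 22.5% lower), with median log2 differences of -0.36, -0.32 and -0.34. Under scaling to total UMIs, 7 of the 32, 8 of the 25 and 2 of the 25 lower calls held, as did the 1 higher call in Meg (Psmd1). The medians were then -0.06, -0.08 and 0.02, so that the direction in Meg was lost, while the median of all genes shifted to 0.36, 0.27 and 0.36. In HSC/MPP these 7 were the ATPases Psmc1, Psmc2, Psmc3 and Psmc4, the beta subunits Psmb3 and Psmb5, and Psmd4. DC had 4 higher and 6 lower (38.2% of all genes called, 21.3% higher and 16.9% lower) and baso/mast 2 and 8 (35.9%, 21.3% higher and 14.6% lower). Of these, the 4 higher (Psma4, Psma5, Psma7 and Psmb1) and 2 lower (Psmd5 and Psmd9) calls in DC and the 2 higher calls in baso/mast (Psma6 and Psmd7) held under scaling to total UMIs, and 0 of the 8 lower calls in baso/mast did. In both classes the median of the members turned from below 0 to above it with that scaling, to 0.19 in DC and 0.21 in baso/mast, where the medians of all genes were 0.20 and 0.26. Without WT T2 the 10 calls in DC became 6.

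In EryP/early Ery 17 members were higher and 3 lower (81.9% of all genes called, 44.2% higher and 37.7% lower), and all 17 higher calls and 1 of the lower ones (Psmd13) held under both scalings. Psmd9 was at 126 ± 25.1 CPM there and at 114 ± 33.9 CPM in late Ery, while its mean in the other 8 classes ran from 29.4 CPM in late GN to 64.8 CPM in Meg. Its log2 difference was 1.12 (SE 0.05, adjusted p 6.31e-47) in EryP/early Ery and 2.14 (SE 0.06, adjusted p 1.84e-71) in late Ery. Scaled to total UMIs, the late Ery difference was 1.08, still above 0. Psmd5, another base chaperone, had its highest mean CPM in EryP/early Ery, at 53.9 ± 5.55 CPM (log2 difference 0.70, SE 0.06), whereas with TMM factors its difference was larger in late Ery (1.37, SE 0.09), where it was at 37.3 ± 5.73 CPM. Psmd9 and Psmd5 were the only members higher in late Ery under both scalings. The third chaperone, Psmd10, had its lowest mean CPM in late Ery (24.1 ± 7.28 CPM), but with TMM factors it was called higher there (0.61, SE 0.10, adjusted p 3.66e-08), a call that did not hold under scaling to total UMIs. Psmd9 overlaps Hpd on the opposite strand in the annotation.

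Psmd7 had the widest range of class means in CPM among the members above 50 CPM. It was at 190 ± 36.9 CPM in EryP/early Ery and at 23.9 ± 4.73 CPM in late GN, with no overlap between these classes (131 to 261 CPM against 15.7 to 32.1 CPM over 12 libraries). The log2 difference was 1.01 (SE 0.05) in EryP/early Ery and -1.38 (SE 0.07, adjusted p 1.23e-43) in late GN. Late GN had 19 members higher and 11 lower (83.5% of all genes called, 39.6% higher and 43.9% lower). The 11 lower calls held under both scalings, and 0 of the 19 higher ones did. Beside Psmd7, they were Psma3, Psma4, Psma5, Psma7, Psmb4, Psmd1, Psmd3, Psmd9, Psmd11 and Psmd12. In late Ery 25 members were higher and 6 lower (80.6% of all genes called, 35.9% higher and 44.7% lower). The 6 lower ones, which held under both scalings, were Psma4, Psma6, Psma7, Psmb2, Psmb3 and Psmb5, all of the 20S rings.

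Among the members with a mean over classes above 50 CPM, the narrowest ranges of class means belonged to Psmd4 (58.9 CPM in late GN to 89.0 CPM in EryP/early Ery), Psmc3, an ATPase of the base (68.7 CPM in HSC/MPP to 116 CPM in ProMo), and Psma1 (123 CPM in late Ery to 219 CPM in ProMo). These members therefore differed in how far they varied, from 1.51-fold for Psmd4 to 7.96-fold for Psmd7 in CPM. This order depends on the scale. With TMM factors the log2 differences of Psmd4 ran from -0.48 in HSC/MPP to 0.93 in late Ery, a wider span than that of Psmb6 (-0.30 to 0.41), and those of Psmd9 (-0.74 in DC to 2.14 in late Ery) spanned more than those of Psmd7 (-1.38 to 1.01). Psma8 was at 6.98 ± 3.59 CPM in ProMo and 0.189 ± 0.272 CPM in late GN, values that rest on few UMIs.

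**Figure D5:**
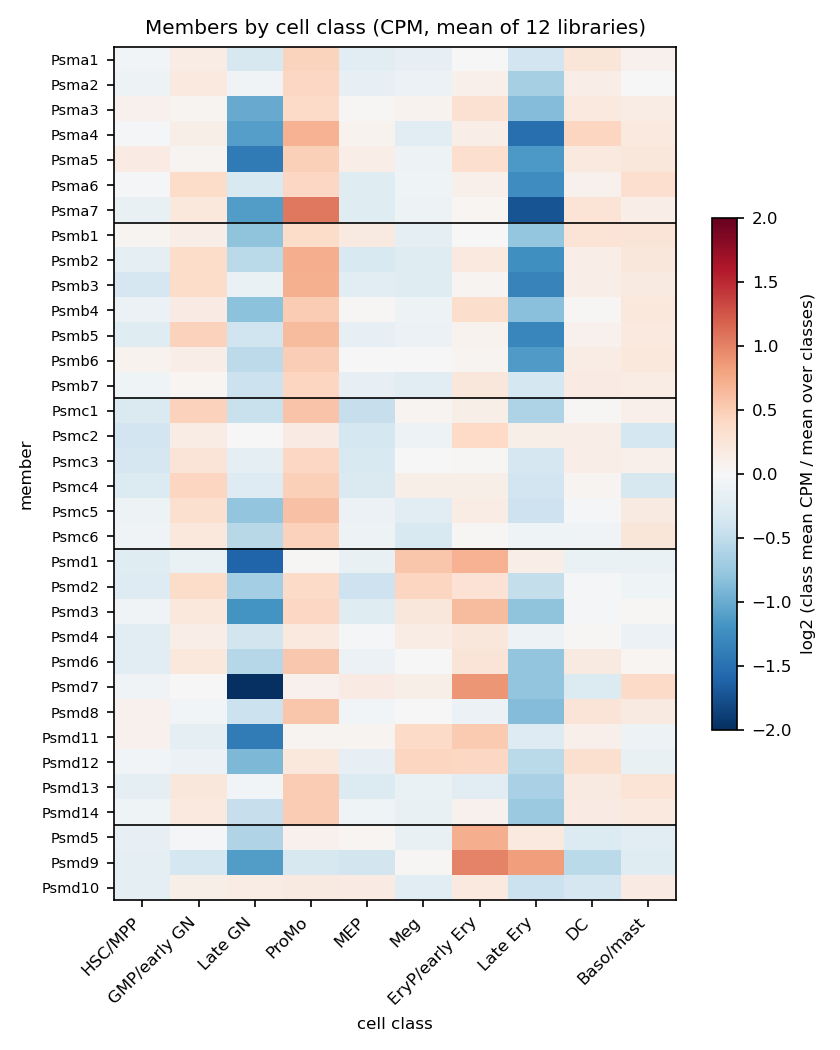
Mean CPM of 34 members (y axis, ordered by subcomplex, with lines between the groups) in 10 cell classes (x axis), as the log2 ratio to the member's own mean over classes (color scale). ProMo is high for all 20S ring subunits, late Ery is low for 20S subunits such as Psma7 and high for Psmd9, and Psmd7 is lowest in late GN.

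The ratio of core to cap does not depend on the scale, since both sums come from the same library and class. It was 1.92 ± 0.17 in late Ery (SD, n = 12), 2.46 ± 0.30 in Meg and 2.55 ± 0.19 in EryP/early Ery. The other 7 classes had means from 2.84 in late GN to 3.33 ± 0.34 in ProMo. Late Ery had the lowest ratio of all classes in 10 of 12 libraries and Meg in the other 2, and ProMo had the highest in 7. The late Ery ratio averaged 1.88 over WT libraries, 1.99 over E2-KO, 1.74 over G12D and 2.05 over G12D/E2-KO. These are ratios of transcripts and are given as a description.

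The third comparison asked whether the subunit genes differed between genotypes at a fixed cell class. In G12D/E2-KO against WT the member median was below 0 in 10 of 10 classes, from -0.33 in Meg to -0.04 in DC, while the median of all genes lay between -0.01 and 0.02. The member median was also below 0 in 10 of 10 classes in G12D (-0.20 to -0.07) and in 8 of 10 in E2-KO (-0.23 to 0.11). All classes come from the same libraries, so they are not independent replicates. The summed CPM was lower in the double mutant in 27 of 30 pairs of libraries of the same class and time point, in 26 of 30 in G12D and in 21 of 30 in E2-KO. In ProMo, for example, it was 6519 ± 620 CPM in WT and 5556 ± 414 CPM in G12D/E2-KO (SD, n = 3), lower at 3 of 3 time points. EryP/early Ery had 5313 ± 713 CPM in WT and 5360 ± 1045 CPM in E2-KO, against 4496 ± 624 CPM in G12D and 4011 ± 259 CPM in the double mutant. In DC the groups were close, at 4791 ± 416 CPM in WT and 4528 ± 216 CPM in the double mutant.

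Over the 10 classes 339 member tests were made per mutant. In the double mutant 9 were called, all lower, in 3 classes: 5 in late GN (4.73% of all genes called, 1.6% lower), 3 in EryP/early Ery (4.03%, 1.29% lower) and 1 in ProMo (2.48%, 1.11% lower). In the other 7 classes edgeR and DESeq2 called 0 members, with 33 at an unadjusted p under 0.05 (6.05% to 15.6% of all genes per class), while the share of all genes called by edgeR was 1.65% in GMP/early GN, 1.09% in late Ery, 0.612% in MEP, 0.534% in HSC/MPP, 0.378% in Meg, 0.269% in baso/mast and 0.114% in DC. In E2-KO edgeR and DESeq2 called 0 of 339, with 28 at an unadjusted p under 0.05, a cutoff that 6.53% to 16.6% of all genes passed per class. The share of all genes called there was 2.68% in EryP/early Ery, 1.77% in late GN, 1.75% in late Ery, 0.855% in GMP/early GN and 0.805% in ProMo, and 0.0% to 0.252% in the other 5 classes. In G12D both tools called 0 of 339, with 18 at an unadjusted p under 0.05. Per class, 3.48% to 6.37% of all genes passed that cutoff and 0.0285% to 0.291% were called.

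Psmd4 in ProMo had the smallest adjusted p. It was at 113, 107 and 107 CPM in WT, at 83.4, 91.5 and 59.9 CPM in E2-KO, at 77.2, 102 and 81.8 CPM in G12D and at 73.1, 69.6 and 71.5 CPM in G12D/E2-KO. Every mutant library lay below every WT library. The log2 change in the double mutant was -0.67 (SE 0.16, adjusted p 0.0184). The call was lost without WT T1 (0.0662), WT T3 (0.195) or G12D/E2-KO T2 (0.111), and under scaling to total UMIs alone (0.0605). In late GN, Psmd4 was at 57.1, 71.8 and 65.9 CPM in WT and at 47.3, 49.2 and 52.9 CPM in the double mutant, without overlap (log2 change -0.56, SE 0.16, adjusted p 0.0383). In the late GN class Psma3 (-0.54), Psma2 (-0.49), Psma7 (-0.48) and Psmd11 (-0.68) were also called, and 0 of the 5 calls in this class held under scaling to total UMIs alone.

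In EryP/early Ery the alpha subunits Psma2 and Psma7 and the catalytic subunit Psmb6 were called. Psma7 was at 559, 493 and 433 CPM in WT and at 319, 266 and 384 CPM in G12D/E2-KO (log2 change -0.55, SE 0.15, adjusted p 0.0411). Psma2 was at 305, 270 and 198 CPM in WT and at 181, 165 and 155 CPM in G12D/E2-KO (-0.55, SE 0.13, adjusted p 0.0251). Psmb6 was at 310, 288 and 238 CPM in WT and at 239, 182 and 162 CPM in G12D/E2-KO, where 1 value overlapped the WT range (-0.47, SE 0.12, adjusted p 0.0368). All 3 held under scaling to total UMIs alone. The 9 calls became 0 without WT T3 or without G12D/E2-KO T2, 1 without WT T2, 2 without WT T1, 3 without G12D T1 or G12D T2, 4 without E2-KO T1 or G12D T3 and 15 without G12D/E2-KO T3. They became 1 when the time point was not fitted as a block, and that call was Psmd4 in ProMo. DESeq2 made 6 calls: all 3 in EryP/early Ery, Psmd4 in ProMo, and Psma3 and Psma7 in late GN. All 6 were lower, where DESeq2 called 2.86% of all genes in EryP/early Ery (0.844% lower), 1.43% in ProMo (0.637% lower) and 2.8% in late GN (0.909% lower). The median UMI number per cell was 4186.0 in G12D/E2-KO T2 and 6975.5 in WT T2, and its part in these differences was not tested.

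Other genes of the pathway were read from a separate list of 38 names, of which 34 were in the files and tested over all cells with edgeR alone. In G12D/E2-KO 1 was higher and 1 lower than in WT, and 0 of 34 were called in E2-KO or in G12D (3 and 2 at an unadjusted p under 0.05 with edgeR, where 16.1% and 11.8% of all genes passed). Of all genes tested, 5.69% were called in G12D/E2-KO, 1.59% in E2-KO and 0.109% in G12D, so the 2 of 34 lie close to the background. Psmf1, which encodes the inhibitor PI31, was at 33.7, 36.6 and 31.0 CPM in WT and at 23.9, 19.2 and 18.6 CPM in the double mutant, without overlap (log2 change -0.76, SE 0.19, adjusted p 0.0434). Its levels were 28.3, 33.4 and 25.4 CPM in E2-KO (-0.24, SE 0.19, adjusted p 0.542) and 21.9, 33.1 and 16.15 CPM in G12D (-0.52, SE 0.19, adjusted p 0.356), both overlapping WT. Ubqln2, which shuttles ubiquitinated proteins to the proteasome, was at 12.8, 14.04 and 11.8 CPM in WT and at 14.5, 23.1 and 26.4 CPM in the double mutant, all above WT (0.64, SE 0.16, adjusted p 0.044). In E2-KO it was at 18.3, 16.7 and 21.6 CPM, also all above WT, with a log2 change of 0.53 (SE 0.16, adjusted p 0.135), and in G12D at 13.3, 14.3 and 15.0 CPM (0.17, SE 0.16, adjusted p 0.692). Under scaling to total UMIs alone the double mutant call remained for Psmf1 (adjusted p 0.0467) and not for Ubqln2 (0.0506). Pomp, the maturation factor of the 20S core, was at 359, 334 and 308 CPM in WT and 355, 327 and 316 CPM in the double mutant (-0.05, SE 0.12, adjusted p 0.807), and its groups overlapped. Nfe2l1, the activator named above, had a log2 change of 0.27 (SE 0.14, adjusted p 0.258). The median log2 change of the 34 genes was -0.04.

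The immunoproteasome genes Psmb8, Psmb9 and Psmb10 were also read by class, in the fit with TMM factors. Psmb8, which replaces Psmb5 in the immunoproteasome, had a log2 difference from the mean of the other classes of 1.64 in DC, 1.21 in ProMo, -2.25 in EryP/early Ery and -2.93 in late Ery. Psmb9 had 1.47, 0.66, -1.61 and -2.10 in the same 4 classes, and Psmb10 had 0.74, 1.06, -0.22 and -2.15. All of these passed the threshold, and their directions were the same under scaling to total UMIs, where only Psmb10 in EryP/early Ery no longer passed (-0.08, adjusted p 0.269). With TMM factors the standard subunit Psmb5 stood at -0.02 in DC (0.20 under scaling to total UMIs), 0.56 in ProMo, 0.00 in EryP/early Ery and -0.29 in late Ery, so both Psmb8 and Psmb5 were higher in ProMo and lower in late Ery. The difference between the Psmb8 and Psmb5 patterns was not tested. In G12D/E2-KO against WT over all cells, Psmb8 had a log2 change of 0.14 (SE 0.22, adjusted p 0.722), Psmb9 0.28 (SE 0.29, adjusted p 0.569) and Psmb10 -0.27 (SE 0.16, adjusted p 0.304), none of which passed. In G12D, Psmb8 was at 270.4, 258 and 380.0 CPM against 216, 240.4 and 183 CPM in WT, without overlap (log2 change 0.56, SE 0.22, adjusted p 0.381), and Psmb9 had a log2 change of 0.54 (SE 0.29, adjusted p 0.486), so neither passed there.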

How the data were processed

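Single-cell RNA sequencing counts of c-Kit-enriched bone marrow cells from 12 mouse libraries were used. Per the labels and methods, the authors processed each sample separately with Cell Ranger against mm10, removed cells with more than 10% mitochondrial transcripts and doublets called by Scrublet, and deposited whole-number UMI counts per gene and cell. No further doublet caller or cell filter was run. The deposited counts carry no normalization. The members and gene lists were chosen with earlier results of these data known.

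Cells held in both the G12D T1 and G12D/E2-KO T1 tables (cosine similarity above 0.9 on log counts of 8000 genes, after the 300 most abundant were left out) were kept only in the latter. A cell took the class with the highest marker score if its z against WT was at least 1, the margin over the next list at least 0.25 and at least 2 markers had a UMI. This scoring rule was set after class sizes were seen, and 2052 of 6584 late GN and 1257 of 3229 GMP/early GN cells lay near a cut. B lymphoid, T/NK and macrophage classes fell short of 20 cells in a library and were not used.

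Counts were summed per library, or per library and class, giving 12.6 to 23.6 M UMIs per library. The tests used R 4.3.3 with edgeR 4.0.16: TMM, filterByExpr, glmQLFit with robust estimation and glmQLFTest, two-sided, Benjamini-Hochberg over all genes tested, threshold 0.05. Genotype and time point were factors over all cells and within classes (6 residual degrees of freedom), and library and class were factors between classes. The fit between classes takes the 12 libraries as replicates. DESeq2 1.42.0, no filter, no block, other cell sets, a sex covariate, a stricter gate, leaving out each library, and scaling to total UMIs (added after the data were seen) were alternatives. The fits were tested on simulated data with 200 changed genes.

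The replicate number marks the time point, which the labels give, so the fit has it as a block. Deviations from the genotype means correlated at -0.19 to 0.42 (median 0.13) in the 18 pairs of libraries of the same time point and at -0.37 to 0.38 (median -0.06) in 36 other pairs.

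Named with values were Psmb5, Psmb6, Psmb7, Psmd14, Psmd4, each member called in a mutant against WT over all cells, the 3 members of smallest p in these contrasts, the interaction and the time contrasts, and between classes the 5 widest and 3 narrowest members above 50 CPM. Tests within a class and the other pathway genes are named by their calls. Promoters are from RefSeq (GRCm38.p6).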

Additional observations from a re-analysis of the deposited data

How the results depend on the processing

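Over all cells, the 2 members called in G12D/E2-KO against WT became 5 with DESeq2, 1 with no filter, no replicate block, the cells as deposited or only the groups compared, and 0 when scaled to total UMIs. With a sex covariate edgeR called Psmd7 (adjusted p 0.0146) beside Psmd4 (0.0498) and Psmd9 (0.0155). Leaving out single libraries gave 0 to 3 calls. Psmd9 remained called in every setting other than scaling to total UMIs and leaving out WT T1, WT T3 or G12D/E2-KO T2, and Psma8 ran from -0.64 to 0.21 when single libraries were left out. Against E2-KO the 0 calls became 3 with DESeq2, 1 with a sex covariate and 0 to 1 on leaving out single libraries. Against G12D leaving out single libraries also gave 0 to 1. At T3 the sex covariate sets apart G12D/E2-KO alone, so in contrasts of genotypes it acts as leaving out that library. For T3 against T1 that library alone then sets the T3 term, so no call is given.

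Between classes, the 3 WT libraries alone gave fewer calls: 21 in HSC/MPP, 9 in GMP/early GN, 8 in MEP, 12 in Meg, 2 in DC and 2 in baso/mast, where 35.4%, 38.4%, 20.5%, 24.7%, 13.2% and 9.78% of all genes were called. Scaling to total UMIs gave 12 in HSC/MPP, 11 in MEP, 10 in Meg, 19 in DC and 17 in baso/mast, where 68.8%, 46.7%, 61.6%, 42.5% and 45.7% of all genes were called. DC gave 6 to 10 calls on leaving out single libraries (6 without WT T2). With that scaling the median log2 difference of the members turned to -0.55 in late GN, -0.71 in late Ery, 0.017 in Meg, 0.19 in DC and 0.21 in baso/mast. It was -0.030 in EryP/early Ery with DESeq2, 0.041 in DC with DESeq2 and 0.044 with the stricter gate. On leaving out single libraries it ran from -0.048 to 0.010 in DC (above 0 without WT T1 or G12D T2) and from -0.056 to 0.00058 in baso/mast (above 0 without G12D/E2-KO T1).

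Within classes, the 9 calls in G12D/E2-KO became 16 with no filter, 1 with no replicate block, 4 with the cells as deposited, 3 when scaled to total UMIs and 0 to 15 on leaving out single libraries. In E2-KO the 0 calls became 2 with no filter. The summed level of E2-KO against WT had a log2 ratio of -0.14 to 0.16 on leaving out single libraries, the highest without E2-KO T3. That of G12D ran from -0.23 to -0.07, and that of G12D/E2-KO stayed between -0.36 and -0.22. These ranges kept the partner library of the same time point, so they also hold differences between time points. Within T1, T2 and T3 the log2 ratio was -0.01, 0.14 and -0.17 in E2-KO, -0.34, -0.07 and 0.02 in G12D, and -0.34, -0.35 and -0.11 in G12D/E2-KO. The cause of these shifts was not tested. Each genotype has 3 libraries of different times, and the number of cells limits the small classes: DC had as few as 21 cells and Meg 20 in a library.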
